A study of Mus musculus with 25 samples.

Results

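PD1 is an inhibitory receptor of T cells, encoded in the mouse by Pdcd1. Open chromatin at its locus was measured by ATAC-seq in 25 libraries from 7 groups of CD8+ T cells. The peaks described are all those whose midpoint lies in the Pdcd1 gene body or has the Pdcd1 start as the nearest start site of a protein-coding gene (GENCODE vM39, GRCm39). This rule used no measured values and gave 5 members of the 13527 peaks in the count table. All libraries came from spleen and lymph nodes of female C57BL/6 mice aged 8 to 12 weeks when obtained, and held CD8+ T cells that bound an OVA tetramer, OVA being an antigen of the paternal 2W-OVA.BALB/c strain, called fetus/graft-specific T cells (T_FGS).

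Naive mice (3 libraries) had neither a graft nor a pregnancy, and Sensitized mice (4 libraries) had rejected a skin graft of the paternal strain at least 30 days earlier. N+P mice went through a semi-allogeneic pregnancy without a graft, and S+P mice were first grafted and then became pregnant by males of the graft's strain. Their cells were taken at most 3 days after birth and split by the surface proteins PD1 and CD73. C1 (N+P, 3 libraries) and C4 (S+P, 4 libraries) are the PD1-negative cells, C5 (3 N+P and 4 S+P libraries) is PD1+CD73+, and C7 (S+P only, 4 libraries) is PD1+CD73-. Naive and Sensitized cells were not split in this way. The sort therefore used the protein that Pdcd1 encodes, so comparisons of C5 or C7 with C4 or C1 are between cells chosen for the product of this gene. Differences of any sorted subset from Naive or Sensitized hold both the pregnancy and the sort, which cannot be told apart. These libraries measure accessibility, and Pdcd1 RNA was not analysed here. In bulk cells, fewer cells with an open site and a less open site per cell cannot be told apart.

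PD1 is absent from resting naive T cells, appears when the antigen receptor signals, and stays high when antigen persists, as in exhausted cells of chronic infection and tumors. When bound by its ligands PD-L1 and PD-L2 it recruits the phosphatase SHP2, which dampens signals of the antigen receptor and of CD28. Transcription of the gene is driven by NFAT downstream of the antigen receptor, and sites upstream of the gene that open in exhausted but not in naive CD8+ T cells are known to act as its enhancers.

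Pdcd1 (ENSMUSG00000026285.10) lies on the minus strand of chromosome 1 (chr1:93966027-93980312) with 5 exons, and its upstream side is at higher coordinates. 1 member lies inside the gene and the other 4 are upstream of it, between genes. The intron 1 peak (chr1:93969731-93970855, 1125 bp) is in the long first intron, 10019 bp into the gene from its start. The 3 kb peak (chr1:93982381-93984275, 1895 bp) has its midpoint 3016 bp upstream of the start. The 22 kb peak (chr1:94002326-94003130, 805 bp), the 27 kb peak (chr1:94006703-94007317, 615 bp) and the 39 kb peak (chr1:94019291-94020190, 900 bp) lie 22416, 26698 and 39428 bp upstream. No peak lay within 1000 bp of the Pdcd1 start (0 peaks). The only other peak within 200 kb, here called the flanking peak, lies 1852 bp beyond the 3′ end of the gene (chr1:93962265-93964175) and has Neu4 as its nearest gene start. The 5 members held 40.9% to 52.4% G and C, against a median of 54.4% for all peaks.

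The central 300 bases of 4 peaks are shown because these sites divide the locus: the first 3 were called different between groups and the last, the nearest neighbour of the 22 kb peak, was called in none of the comparisons. They are the plus strand of GRCm39, so transcription of Pdcd1 runs from right to left. Capitals mark matches, on either strand, to GGAAA (the core recognized by NFAT), TGANTCA (AP-1), TGTGGT (RUNX), CTTTGA (TCF/LEF) and GGTGTGA (T-box factors).
intron 1 peak (chr1:93970143-93970442): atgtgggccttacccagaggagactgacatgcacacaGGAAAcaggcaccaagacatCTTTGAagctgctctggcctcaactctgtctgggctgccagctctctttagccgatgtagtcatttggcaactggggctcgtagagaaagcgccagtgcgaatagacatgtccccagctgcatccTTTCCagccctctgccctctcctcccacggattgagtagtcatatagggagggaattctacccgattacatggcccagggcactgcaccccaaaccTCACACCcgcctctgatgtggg
3 kb peak (chr1:93983178-93983477): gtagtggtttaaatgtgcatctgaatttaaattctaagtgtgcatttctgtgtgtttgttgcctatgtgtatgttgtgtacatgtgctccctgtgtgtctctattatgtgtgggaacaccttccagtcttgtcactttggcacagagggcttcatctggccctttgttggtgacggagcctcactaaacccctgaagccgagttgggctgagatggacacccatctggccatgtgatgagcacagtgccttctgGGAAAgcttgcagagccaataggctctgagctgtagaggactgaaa
22 kb peak (chr1:94002578-94002877): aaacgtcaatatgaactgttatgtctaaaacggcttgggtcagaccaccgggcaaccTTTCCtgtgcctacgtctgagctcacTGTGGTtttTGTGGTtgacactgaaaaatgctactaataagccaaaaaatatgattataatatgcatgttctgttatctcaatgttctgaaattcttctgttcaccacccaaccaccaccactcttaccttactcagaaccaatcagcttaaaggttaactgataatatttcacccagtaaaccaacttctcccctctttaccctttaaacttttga
27 kb peak (chr1:94006860-94007159): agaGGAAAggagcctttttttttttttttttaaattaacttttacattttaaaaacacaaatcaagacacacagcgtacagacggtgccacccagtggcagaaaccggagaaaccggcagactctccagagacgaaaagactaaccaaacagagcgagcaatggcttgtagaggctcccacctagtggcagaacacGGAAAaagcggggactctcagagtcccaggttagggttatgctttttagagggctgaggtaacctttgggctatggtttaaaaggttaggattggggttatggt

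The NFAT core was found in the central window of all 5 members, with 1 or 2 matches each. In a window of that length 59.0% of all 13527 peaks hold it, and 68.7% of those outside promoters, where all 5 members lie. The 22 kb window held 2 copies of the RUNX string on the same strand, at positions 84 and 93 counted from the left end, and the 39 kb window held 1. RUNX strings were in 24.3% of all peaks and 40.6% of those outside promoters. The intron 1 window held 1 TCF/LEF match (16.3% of all peaks, 25.5% outside promoters) and 1 T-box match (5.12% and 7.7%). The 3 kb window held 1 match to GTGGGAA, read by RBPJ of the Notch pathway (5.92%, and 6.83% outside promoters). It also held 1 match to TTCNNNGAA, read by STAT proteins (7.73% and 10.2%), whose last bases overlap the NFAT core at position 255. The 39 kb window held 1 ETS match, GGAAGT (29.3%, and 32.7% outside promoters). No member held the AP-1 string, in the window or in the whole peak, and 25.7% of all peaks hold it in their whole length. Strings for NR4A (AAGGTCA), IRF (GAAANNGAA), FOXO (GTAAACA), KLF (GGGNGTGG) and CTCF (AGGNGGC) had no match in the 5 windows, against 3.45%, 8.43%, 3.33%, 16.9% and 32.3% of all peaks. Outside promoters these shares were 4.88%, 11.8%, 5.12%, 14.1% and 21.1%. A match of letters does not show that a factor binds.

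Library totals ranged from 2430890 to 25419715 counts, with a median of 8197552. Of 7 marker genes of CD8+ T cells, 5 had a promoter peak: Cd8a, and Cd3d, Cd3e, Cd3g and Cd5, which CD4+ T cells share. Cd8b1 and Cd2 had no promoter peak. None of 3 markers of CD4+ or regulatory T cells, 6 of B cells, 6 of myeloid cells and 3 of erythroid cells had a promoter peak. Only peaks found in the pooled list of a group were counted, so a missing peak does not show that such cells were absent. Of 4 NK cell markers only Eomes, which effector and memory CD8+ T cells also use, had a promoter peak. Its normalized count ran from 286 to 417 over the Naive and N+P libraries, 421 to 754 in Sensitized, 534 to 764 in S+P C4, 899 to 1020 in S+P C5 and 798 to 1230 in S+P C7. Its part in the values of the Pdcd1 peaks was not tested. Sensitized replicates 3 and 4 stood apart from replicates 1 and 2. Over 974 other peaks that opened between Naive and Sensitized, their median log2 level above the Naive mean was 0.987 and 1.21, against 2.25 or more in replicates 1 and 2. Comparisons with Sensitized were therefore also made without replicates 3 and 4.

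The locus fell into 2 kinds of sites. At the intron 1, 3 kb and 22 kb peaks every one of the 16 Sensitized and S+P libraries lay above every one of the 9 Naive and N+P libraries, as at 5.88% of all peaks (796). The 27 kb and 39 kb peaks had reads at a comparable level in every group. The 3 peaks of the first kind are called the opening peaks here. Levels are given throughout as normalized counts, the reads of a peak over the library's size factor from DESeq2. Outside S+P C5 and C7 the group means of the opening peaks, per kb of peak, stayed among the lowest of all peaks. This did not hold for every Sensitized library. At the intron 1 peak, Sensitized replicates 1 and 2 had 397.9 and 389.2 per kb, against a group mean of 249.3. At the 22 kb peak they had 472.2 and 485.4, against a group mean of 305.0.

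The intron 1 peak, inside the gene, had 52.3, 51.1 and 36.0 normalized counts in Naive, 35.4, 56.1 and 67.8 in N+P C1 and 43.3, 57.6 and 57.7 in N+P C5. In Sensitized it had 447.6, 437.8, 106.1 and 130.2, in the order of the replicate numbers. The S+P C4 libraries had 163.3, 170.1, 304.1 and 223.7, those of S+P C5 had 423.2, 555.6, 475.8 and 325.4, and those of S+P C7 had 472.0, 650.3, 565.0 and 357.2. The lowest Sensitized library therefore lay above the highest Naive or N+P library, and the Sensitized libraries split into a high and a low pair.

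The 3 kb peak, the closest to the start site, had 68.9, 79.7 and 61.8 normalized counts in Naive, 43.1, 66.2 and 88.5 in N+P C1 and 107.7, 94.6 and 92.6 in N+P C5. It had 544.5, 594.7, 169.1 and 215.3 in Sensitized and 323.3, 266.1, 461.1 and 299.8 in S+P C4. S+P C5 libraries had 757.8, 895.4, 849.9 and 532.1, and S+P C7 libraries had 852.2, 978.8, 893.1 and 545.4. All S+P C5 and C7 libraries exceeded all S+P C4 libraries, but replicate 4 of both lay below Sensitized replicate 2.

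The 22 kb peak had the lowest starting level, with 35.8, 30.5 and 17.0 normalized counts in Naive and 11.1, 58.3 and 17.0 in N+P C1, from 9 to 52 reads. N+P C5 had 40.2, 71.3 and 68.5. Sensitized had 380.1, 390.7, 93.5 and 117.7, and S+P C4 had 153.1, 215.5, 253.2 and 121.1. S+P C5 had 601.3, 714.8, 635.5 and 247.0, and S+P C7 had 654.1, 558.4, 644.5 and 246.6. Replicate 4 was the lowest library of each S+P subset here, and in S+P C5 and C7 it lay below Sensitized replicates 1 and 2, which the other replicates exceeded.

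**Figure D1:**
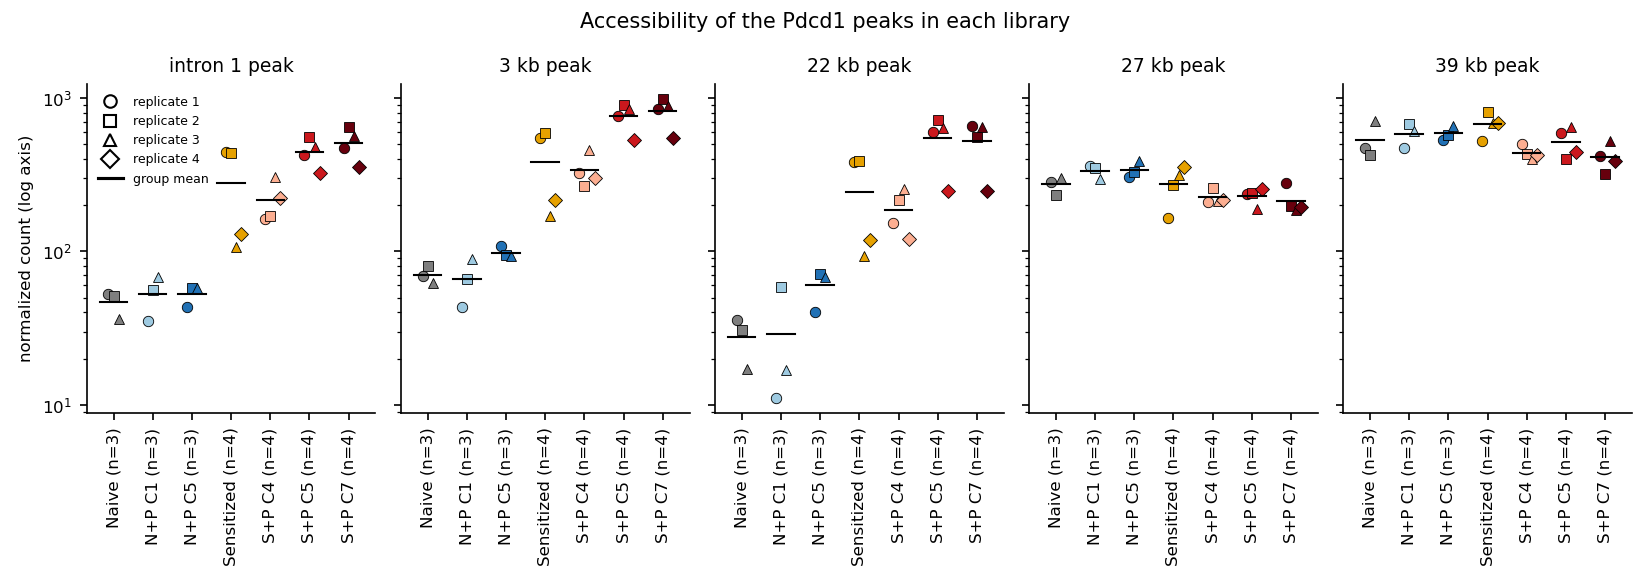
Normalized ATAC-seq count (log axis) of the 5 Pdcd1 peaks in each of the 25 libraries, by group; symbols mark the replicate number and bars the group mean. The highest Naive or N+P library is at 67.8, 107.7 and 71.3 at the intron 1, 3 kb and 22 kb peaks and the lowest Sensitized or S+P library at 106.1, 169.1 and 93.5, with Sensitized replicates 3 and 4 low, while the 27 kb and 39 kb peaks span 166.1 to 386.0 and 321.7 to 805.8 over all groups.

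The 2 remaining members lie between genes further upstream. The 27 kb peak had 285.2, 233.1 and 300.9 normalized counts in Naive, 361.7, 351.0 and 295.8 in N+P C1, 304.9, 328.9 and 386.0 in N+P C5, and 166.1, 269.1, 313.0 and 354.2 in Sensitized. S+P C4 libraries had 211.0, 259.6, 212.2 and 217.4, S+P C5 libraries 235.4, 241.8, 187.5 and 256.0, and S+P C7 libraries 279.8, 197.5, 185.6 and 194.5. The 39 kb peak had 472.5, 423.9 and 704.1 in Naive, 473.4, 674.0 and 604.8 in N+P C1, 533.3, 575.6 and 652.9 in N+P C5, and 526.1, 805.8, 689.1 and 686.6 in Sensitized. Its S+P C4 libraries had 503.6, 432.3, 397.5 and 425.3, the S+P C5 ones 589.1, 399.5, 645.6 and 444.8, and the S+P C7 ones 418.5, 321.7, 523.6 and 389.7. Neither peak separated Sensitized from Naive, but at the 27 kb peak every S+P library lay below every N+P library, the reverse of the opening peaks and a separation found at 14.2% of all peaks. The flanking peak beyond the 3′ end of the gene stayed between 980 and 1779 in all 25 libraries.

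Per kb of peak, the 5 sites could be compared with each other. In Naive cells the intron 1, 3 kb and 22 kb peaks had 41.3 ± 8.12, 37.0 ± 4.74 and 34.5 ± 12 normalized counts per kb (SD, n = 3), which placed them at the 1.91, 1.77 and 1.66 percentile of all peaks. The 27 kb and 39 kb peaks had 444 ± 57.8 and 593 ± 166 per kb there. In S+P C5 the 22 kb peak reached 683 ± 258 per kb (SD, n = 4), the 82.1 percentile of all peaks and above the 577 ± 129 of the 39 kb peak. The intron 1 and 3 kb peaks reached 396 ± 85.8 and 400 ± 85.3 per kb, the 21.7 and 22.6 percentile. The S+P C7 levels stood at the 37.0, 32.5 and 73.9 percentile at the intron 1, 3 kb and 22 kb peaks. In Sensitized the group means of these peaks were only at the 3.61, 1.86 and 7.87 percentile and in S+P C4 at the 1.66, 1.44 and 3.11 percentile, close to Naive, although their counts were higher. The Sensitized means include the low replicates 3 and 4. Sensitized replicates 1 and 2 had 397.9 and 389.2 per kb at the intron 1 peak, 287.3 and 313.8 at the 3 kb peak, and 472.2 and 485.4 at the 22 kb peak. From Naive to S+P C5, the 22 kb peak went from the least to the most accessible of the 5 members by mean level. Neither rank is clear of the spread, which overlaps that of the intron 1 and 3 kb peaks in Naive and that of the 39 kb peak in S+P C5.

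**Figure D2:**
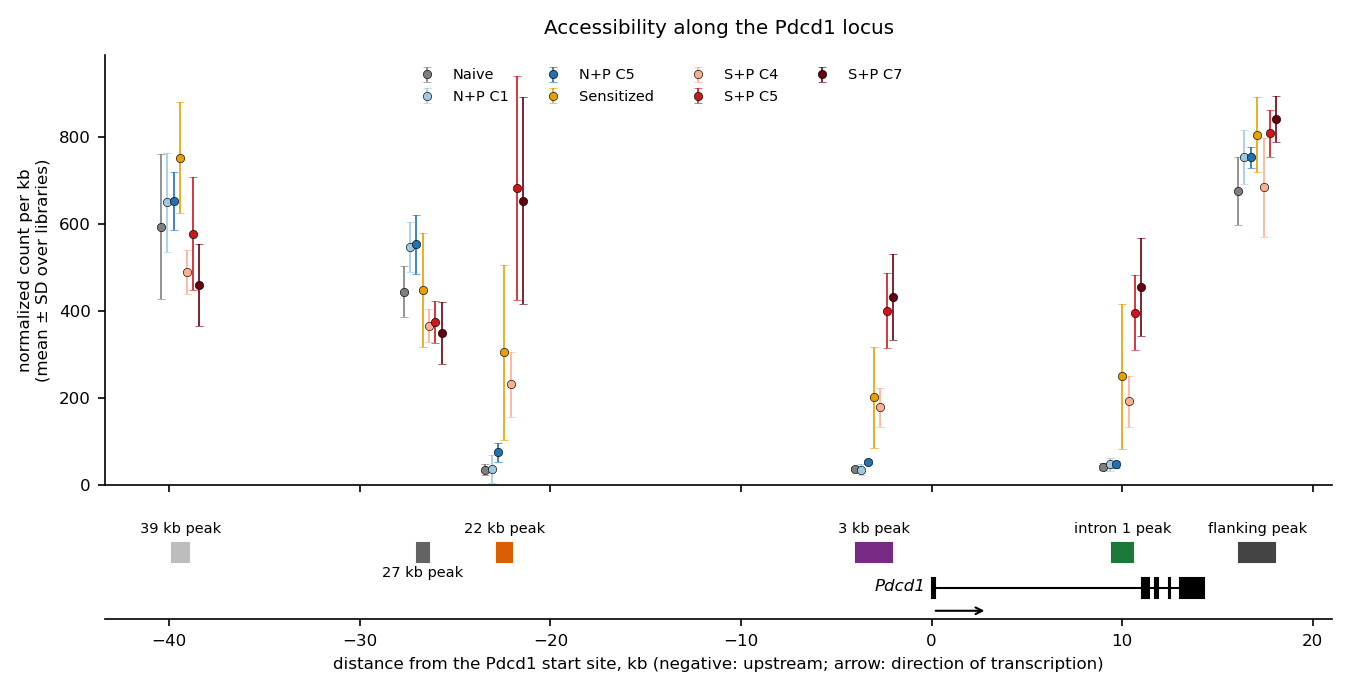
Normalized count per kb (mean ± SD over the 3 or 4 libraries of a group) of the 5 Pdcd1 peaks and the flanking peak by distance from the Pdcd1 start site in kb, with the peaks and the exons of the gene drawn to scale beneath. The 22 kb peak goes from 34.5 per kb in Naive to 683 in S+P C5, while the 27 kb peak beside it goes from 444 to 374.

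The effect of graft rejection alone was addressed by comparing Sensitized (n = 4) with Naive (n = 3). A peak was called when DESeq2's Wald test, fitted over all 25 libraries and all 13527 peaks, gave an adjusted p (Benjamini-Hochberg) under 0.1 and the log2 fold change exceeded 0.9 in either direction. The 3 opening peaks were called, all higher in Sensitized, against a background of 7.22% of all peaks called higher and 8.62% called in either direction. The log2 fold change was 3.16 ± 0.52 (SE) at the 22 kb peak (DESeq2 adjusted p = 5.84e-08), 2.60 ± 0.40 at the intron 1 peak (adjusted p = 5.31e-09) and 2.44 ± 0.35 at the 3 kb peak (adjusted p = 1.21e-10). The groups did not overlap at these 3 peaks, which follows from how the opening peaks were named. The same held at 12.7% of all peaks with Sensitized higher. At the 27 kb and 39 kb peaks the log2 fold change was 0.01 ± 0.21 and 0.34 ± 0.20. Without Sensitized replicates 3 and 4 the 3 calls stood, at 3.82, 3.27 and 3.02 (15.2% of all peaks called), and with loess offsets the 22 kb value was 2.44. The table holds a peak where at least 1 group's pooled list held it. The intron 1 and 22 kb peaks were in the lists of the PD1-positive S+P subsets only, and the 3 kb peak in that of S+P C5 only. These 3 peaks could therefore be counted because they were found in groups where they are high. In comparisons of S+P C5 or C7 with other groups this favours higher values in S+P C5 and C7. The shares over all peaks include peaks listed in any group, so they are not chosen in the same way. The 27 kb peak was in 5 of the 7 lists and the 39 kb peak in 6.

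For a first pregnancy in mice without a graft, the N+P subsets were compared with Naive and with each other (n = 3 each). Naive cells were not split, so against Naive the pregnancy and the sort cannot be told apart. None of the 5 members was called in N+P C1 against Naive or in N+P C5 against Naive (background 0.00739% of peaks in each, 1 peak), nor in N+P C5 against N+P C1 (background 0.0%). DESeq2 gave no adjusted p for the members in the first 2 comparisons because its independent filter on mean counts removed them, and with the filter off the lowest adjusted p was 0.278. At an unadjusted p under 0.05, 2571, 2361 and 308 of all peaks passed in the 3 comparisons, and 0, 1 and 0 members. edgeR also called 0 members in each. The 1 member was the 22 kb peak in N+P C5, PD1+CD73+ cells, at a log2 fold change of 1.13 ± 0.57 over Naive (DESeq2 unadjusted p = 0.047). Its 3 N+P C5 libraries lay above the 3 Naive libraries, as did those of the 3 kb peak (log2 fold change 0.49 ± 0.38) and the 27 kb peak (0.31 ± 0.22), against a background of 14.4% of all peaks. When only these 2 groups were fitted, the 22 kb peak passed (1.13 ± 0.41, DESeq2 adjusted p = 0.0655) and was the 1 member called, in a fit that called 0.481% of all peaks (65). Against the PD1-negative N+P C1 cells the 22 kb difference was 1.04 ± 0.57 (DESeq2 adjusted p = 1.0), and 2.13 without N+P C1 replicate 2, whose absence also moved N+P C1 over Naive at this peak from 0.09 to −1.0. Between N+P C5 and N+P C1 libraries of the same number the ratio of normalized counts was 3.64, 1.22 and 4.04 at the 22 kb peak and 2.50, 1.43 and 1.05 at the 3 kb peak. With the replicate number as a block, fitted to the N+P libraries alone, the 22 kb difference was 1.30 ± 0.48 (DESeq2 adjusted p = 0.928). At the 3 kb peak all N+P C5 libraries lay above all N+P C1 libraries, as at 6.96% of all peaks, with 0.59 ± 0.38 (DESeq2 adjusted p = 1.0). The intron 1 peak differed between N+P C5 and N+P C1 by 0.00 ± 0.45, with a 95% interval of −0.88 to 0.88, so differences within it were not detectable with these libraries.

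Each S+P subset was compared with Sensitized (n = 4 each). Sensitized cells were not split by PD1 and CD73, so pregnancy after sensitization and the sort cannot be told apart here. The opening peaks were found through the lists of S+P C5 and C7, which favours higher values in those subsets. In PD1-positive cells 2 members, the 3 kb and 22 kb peaks, were called, both higher, against 3.08% of all peaks called higher for S+P C5 (6.74% in either direction) and 3.84% for S+P C7 (11.9%). The log2 fold change of S+P C5 over Sensitized was 0.99 ± 0.31 at the 3 kb peak (DESeq2 adjusted p = 0.0105) and 1.16 ± 0.46 at the 22 kb peak (adjusted p = 0.0503). The intron 1 peak had 0.67 ± 0.36 (adjusted p = 0.154) and was not called. In S+P C7 the values were 1.10 ± 0.31 (adjusted p = 0.0017), 1.10 ± 0.46 (adjusted p = 0.0417) and, for the intron 1 peak, 0.87 ± 0.36 (adjusted p = 0.0378, under the fold threshold). At none of the opening peaks did the libraries of S+P C5 or C7 all lie above those of Sensitized, because Sensitized replicates 1 and 2 reached into their range.

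These 2 results rest on the Sensitized replicates 3 and 4. Without both, no member was called in either comparison: for S+P C5 the log2 fold change was 0.41 ± 0.25 at the 3 kb peak, 0.51 ± 0.46 at the 22 kb peak and 0.01 ± 0.27 at the intron 1 peak, and for S+P C7 it was 0.52 ± 0.25, 0.45 ± 0.46 and 0.20 ± 0.27. The share of all peaks called fell as well, from 6.74% to 3.25% (439 peaks) for S+P C5 and from 11.9% to 6.96% (942 peaks) where S+P C7 was compared. Without Sensitized replicate 3 alone, again 0 members were called in both comparisons. Without Sensitized replicate 4 alone, 0 were called for S+P C5 and 1, the 3 kb peak, for S+P C7. Without Sensitized replicate 1 or replicate 2, all 3 opening peaks were called in both. Over all peaks the share called was 4.61% to 4.81% for S+P C5 and 10.3% to 10.4% for S+P C7 without replicate 3 or 4, and 7.88% to 9.29% and 13.1% to 14.5% without replicate 1 or 2. Leaving out S+P C5 replicate 1, 2 or 3 ended the call at the 22 kb peak against Sensitized, at 1.12, 1.01 and 1.09, and so did leaving out S+P C7 replicate 1 or 3 in its comparison, at 0.98 each. Loess offsets in place of size factors also ended the 22 kb call, at 0.74 (S+P C5) and at 0.63 when S+P C7 was compared. Without S+P C7 replicate 1 or 4 the intron 1 peak was also called, at 0.90 and 1.00.

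**Figure D3:**
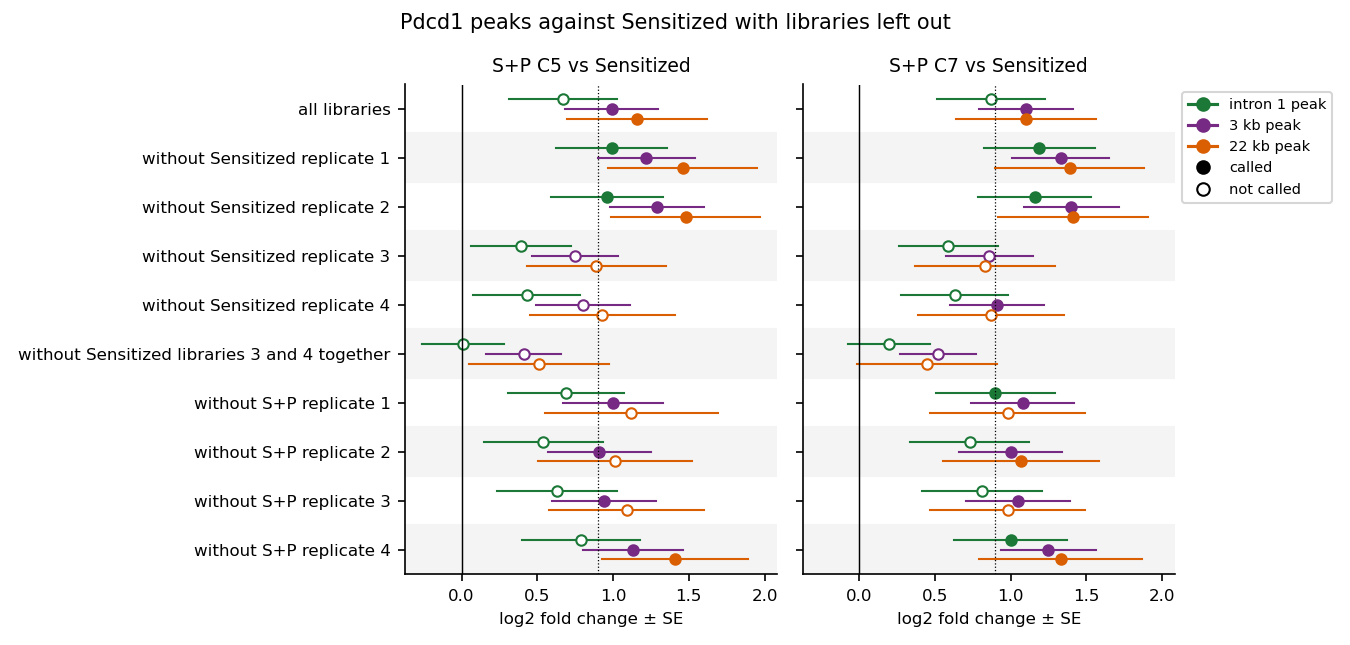
Log2 fold change ± SE of the 3 opening Pdcd1 peaks in S+P C5 (left) and S+P C7 (right) over Sensitized, with all libraries and with the named library left out; filled points are called, the dotted line marks the fold threshold of 0.9. Filled points vanish without Sensitized replicate 3 and without replicates 3 and 4 together, where the 3 kb peak of S+P C5 falls from 0.99 to 0.41.

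PD1-negative S+P C4 cells did not differ by a call from Sensitized at any member (0 of 5, background 0.858% of all peaks, 116 peaks called, and 1 member at an unadjusted p under 0.05 by DESeq2, 0 called by edgeR). The opening peaks had log2 fold changes of −0.37 ± 0.36, −0.17 ± 0.31 and −0.40 ± 0.47 at the intron 1, 3 kb and 22 kb sites. The 39 kb peak was lower in all 4 S+P C4 libraries than in all 4 Sensitized libraries, as at 2.55% of all peaks, with −0.63 ± 0.19 (DESeq2 adjusted p = 0.0318, under the fold threshold). Against Sensitized replicates 1 and 2 alone, the intron 1 peak was called lower in S+P C4, at −1.03 ± 0.28 (DESeq2 adjusted p = 0.00982), in a fit that called 2.31% of all peaks (312). The 22 kb and 3 kb peaks then had −1.05 ± 0.47 and −0.75 ± 0.25 (DESeq2 adjusted p = 0.201 and 0.0586). The 39 kb peak also lay lower in all S+P C7 libraries than in all Sensitized libraries (background 13.1%), at −0.71 ± 0.19 (DESeq2 adjusted p = 0.000657, under the fold threshold).

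Comparing S+P with N+P subsets of the same sort asked how far earlier sensitization changed the locus after birth. The opening peaks were counted only through the lists of S+P C5 and C7, which favours higher values in those subsets. The 3 opening peaks were called in each of the 3 comparisons, all higher in S+P, against a background called higher of 9.62% for the PD1-negative S+P C4 and N+P C1, 10.3% for the PD1+CD73+ S+P C5 and N+P C5, and 11.4% for S+P C7 with N+P C5, whose sorts differ in CD73 (12.6%, 17.2% and 22.0% in either direction). Between the PD1+CD73+ subsets the log2 fold change was 3.20 ± 0.51 at the 22 kb peak, 3.08 ± 0.40 at the intron 1 peak and 2.95 ± 0.34 at the 3 kb peak (DESeq2 adjusted p at most 7.19e-09). Both groups were PD1-positive by the sort, so at these sites cells with PD1 on their surface differed by 9.18, 8.43 and 7.71-fold. With loess offsets the log2 values were lower at the 22 kb and intron 1 peaks, 1.99 and 2.35 in S+P C5 over N+P C5 and 1.88 and 2.52 in S+P C7 over N+P C5, and still called. In the PD1-negative pair the log2 fold change was 2.67 ± 0.53, 2.04 ± 0.41 and 2.37 ± 0.36. The 22 kb value there was 1.70 with loess offsets and 3.76 without N+P C1 replicate 2, and called in both. PD1-negative S+P C4 cells also had higher opening peaks than the PD1-positive N+P C5 cells, by 1.63 ± 0.52 at the 22 kb peak, 2.04 ± 0.41 at the intron 1 peak and 1.78 ± 0.35 at the 3 kb peak (DESeq2 adjusted p at most 0.00767, background 7.66% of peaks called higher and 10.1% in either direction). At the 3 peaks no groups in these 4 comparisons overlapped, which follows from how the opening peaks were named. The same held at 20.7%, 30.9%, 32.5% and 19.8% of all peaks with the S+P group higher. The 27 kb peak had log2 fold changes between −0.56 ± 0.21 and −0.66 ± 0.21 (DESeq2 adjusted p from 0.00374 to 0.0203), under the fold threshold and not called. All its S+P libraries lay below all its N+P libraries in these 4 comparisons, as did 21.5%, 32.0%, 33.4% and 21.9% of all peaks. The 39 kb peak lay lower in the same way in S+P C7 against N+P C5, at −0.51 ± 0.20 (DESeq2 adjusted p = 0.0199), and in S+P C4 against N+P C5, at −0.42 (DESeq2 adjusted p = 0.0757), and was not called.

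The interaction was S+P C5 over Sensitized minus N+P C5 over Naive. It tested whether the step from unsplit cells to C5 cells after pregnancy differed between sensitized and naive mice. That step joins the pregnancy with the sort. No member was called (0 of 5, background 5.97% of peaks, 807 called, with 1 member, the 27 kb peak, at an unadjusted p under 0.05 by DESeq2 and 0 called by edgeR). The difference of log2 fold changes was 0.04 ± 0.73 at the 22 kb peak, 0.50 ± 0.49 at the 3 kb peak and 0.47 ± 0.57 at the intron 1 peak. The interval for the 22 kb peak ran from −1.40 to 1.47, so differences within it were not detectable with these libraries. Without Sensitized replicates 3 and 4 the signs turned, at −0.62 ± 0.66, −0.08 ± 0.37 and −0.19 ± 0.41, and again no member was called. At the 22 kb peak the sign also turned with loess offsets and with other single libraries left out.

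**Figure D4:**
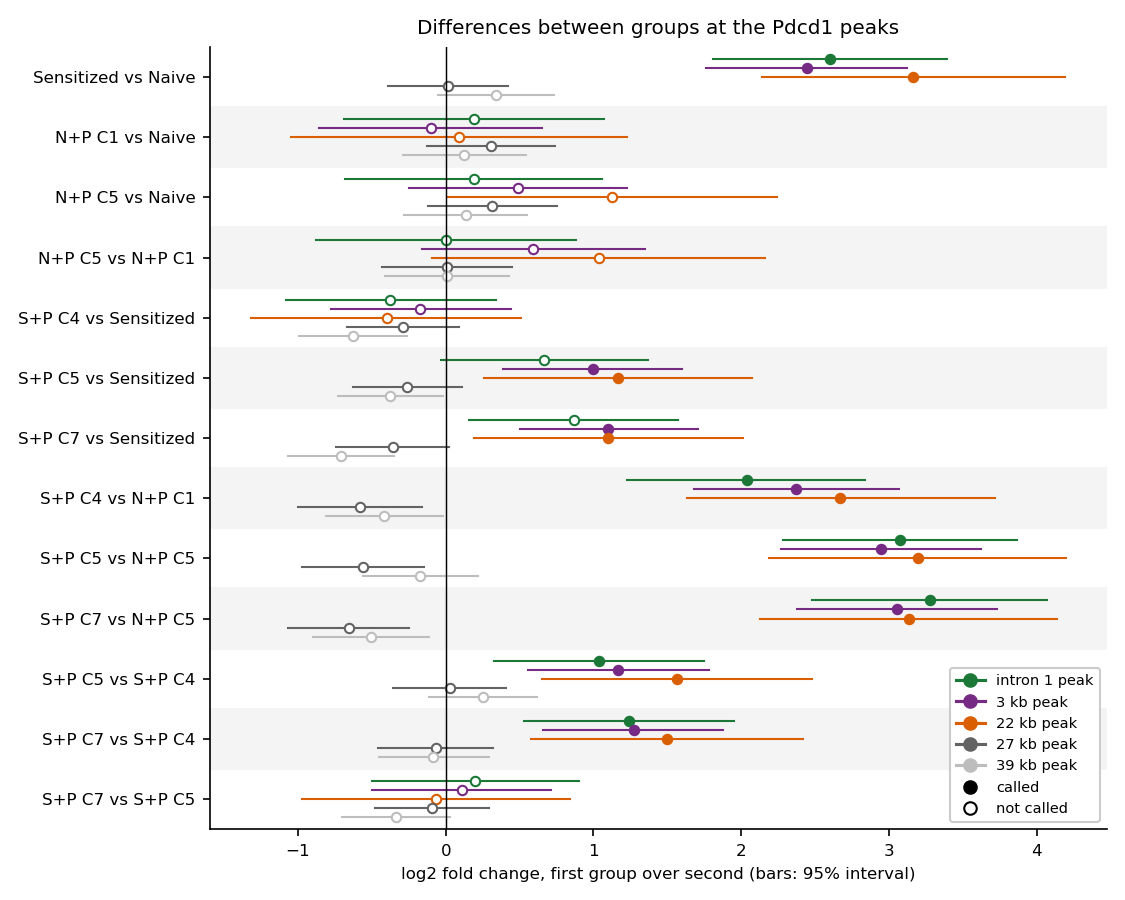
Log2 fold change of the 5 Pdcd1 peaks in 13 comparisons, first group over second, with 95% intervals; filled points are called. The 3 opening peaks lie between 2.04 and 3.28 in the 3 comparisons of an S+P with an N+P group drawn here, against −0.10 to 1.13 in the N+P comparisons with Naive.

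Within S+P mice the sorted subsets were compared with each other (n = 4 each). The lists that held the opening peaks were those of S+P C5 and C7, not that of S+P C4, which favours the PD1-positive side. The 3 opening peaks were called higher in PD1-positive than in PD1-negative cells, both for S+P C5 over S+P C4 (background 3.12% of peaks called higher, 5.12% in either direction) and for S+P C7 over S+P C4 (2.48% and 7.73%). For S+P C5 the log2 fold change was 1.56 ± 0.47 at the 22 kb peak (DESeq2 adjusted p = 0.0124), 1.17 ± 0.31 at the 3 kb peak (adjusted p = 0.00374) and 1.04 ± 0.36 at the intron 1 peak (adjusted p = 0.0415). For S+P C7 it was 1.50 ± 0.47, 1.27 ± 0.31 and 1.24 ± 0.36 (DESeq2 adjusted p at most 0.0121). The groups did not overlap at the intron 1 and 3 kb peaks in either comparison, as at 7.18% and 7.64% of all peaks, and overlapped at the 22 kb peak through replicate 4 of S+P C5 and C7. The intron 1 call in S+P C5 was lost without S+P C4 replicate 1 or 2 (0.94 each), without S+P C5 replicate 2 (0.92) or 3 (1.01), and with loess offsets (0.78). The fit with a block used the S+P libraries alone, so its SE and adjusted p differ from the main fit in the libraries as well as the block. With the replicate number as a block S+P C5 over S+P C4 was 1.01 ± 0.18 at the intron 1 peak (DESeq2 adjusted p = 5.38e-07), 1.14 ± 0.14 at the 3 kb peak (adjusted p = 5.44e-14) and 1.47 ± 0.15 at the 22 kb peak (adjusted p = 7.19e-20). For S+P C7 over S+P C4 the blocked values were 1.21 ± 0.18, 1.25 ± 0.14 and 1.42 ± 0.15 (DESeq2 adjusted p at most 9.58e-10). The blocked fit called 5.46% and 7.91% of all peaks in these comparisons. Between the PD1-positive subsets, S+P C7 and S+P C5, no member was called (0 of 5, background 2.38%, and 0 members at an unadjusted p under 0.05 by DESeq2, 0 called by edgeR). There the log2 fold change was 0.20 ± 0.36, 0.11 ± 0.31 and −0.06 ± 0.46 at the intron 1, 3 kb and 22 kb peaks, and its 95% interval at the 3 kb peak was −0.50 to 0.71. CD73, which separates these subsets, therefore did not come with a called difference at Pdcd1.

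Libraries of S+P subsets carry shared replicate numbers. Between S+P C5 and S+P C4 of the same number, the ratio of normalized counts at the 22 kb peak was 3.93, 3.32, 2.51 and 2.04, at the 3 kb peak 2.34, 3.36, 1.84 and 1.77, and at the intron 1 peak 2.59, 3.27, 1.56 and 1.45. All 12 ratios were above 1. Between S+P C7 and S+P C5 the ratio at the intron 1 peak was 1.12, 1.17, 1.19 and 1.10, and at the 3 kb peak 1.12, 1.09, 1.05 and 1.02. The 39 kb peak was lower in S+P C7 for all 4 numbers, with ratios of 0.71, 0.805, 0.811 and 0.876, and a log2 fold change of −0.33 ± 0.14 with the replicate number as a block (DESeq2 adjusted p = 0.0835), under the fold threshold. Between S+P C7 and S+P C4 of the same number the ratios at the intron 1, 3 kb and 22 kb peaks ran from 1.60 to 4.27. The calls of the subset comparisons were the same in number with the replicate number as a block.

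**Figure D5:**
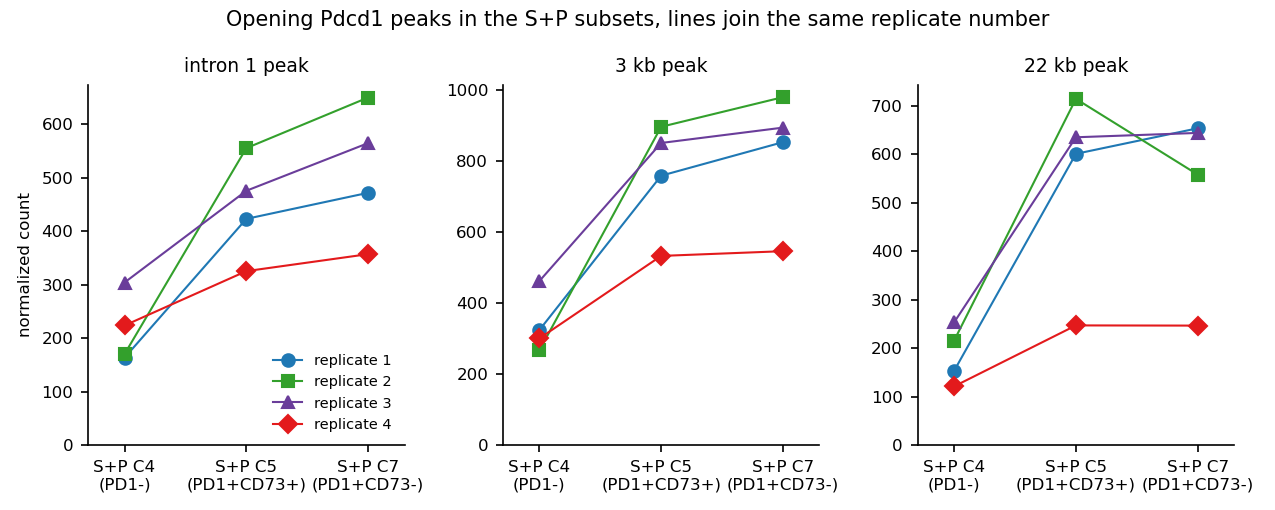
Normalized count of the 3 opening Pdcd1 peaks in the PD1-negative (C4) and PD1-positive (C5, C7) subsets of S+P mice, with lines joining libraries of the same replicate number. Each line rises from C4 to C5, and replicate 4 lies lowest at the 22 kb peak, at 121.1, 247.0 and 246.6.

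Ordered by mean level, the opening peaks put S+P C7 and S+P C5 at the top, then Sensitized, S+P C4 and the Naive and N+P groups. The step from S+P C4 down to the next N+P group was called at all 3 peaks, by 2.04 at the intron 1 peak and by 1.78 and 1.63 at the 3 kb and 22 kb peaks. The neighbours S+P C7 and S+P C5, Sensitized and S+P C4, and the Naive and N+P groups among themselves did not differ by a call. The step from the PD1-positive S+P cells to Sensitized was called at the 3 kb and 22 kb peaks and rests on Sensitized replicates 3 and 4. At the 27 kb and 39 kb peaks no pair of neighbours in the order differed by a call.

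Across the 7 group means of log2(normalized count + 1), the opening peaks correlated with each other at r between 0.977 and 0.994, and with the 27 kb peak at −0.816 to −0.862. These points share their libraries, and 7 means that fall into a low and a high set give a high r easily. By the same measure, over 13522 non-member peaks, the peaks most like the intron 1 peak lay in introns of Rftn1 (r = 0.998), Litaf, Pla1a, Cd47 and Myo1f. Those most like the 3 kb peak lay in introns of Plcl2 and Alcam (r = 0.999 each), Ptpn13 and Lnx2, and between genes with Cth as the nearest. Those most like the 22 kb peak were 2 intergenic peaks, nearest to Rplp1 (r = 0.998) and Plscr4, 2 intronic ones, in Ostf1 (r = 0.998) and Atxn1, and 1 at the promoter of Cysltr2. The Alcam peak, for example, had means of 17.2, 16.2, 27.8, 146, 135, 358 and 351 normalized counts in Naive, both N+P subsets (C1, C5), Sensitized and the S+P subsets (C4, C5, C7). The 27 kb peak was most like a peak in Smpdl3a (r = 0.997) and the 39 kb peak most like one at the promoter of Chac2 (r = 0.972).

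Other genes of the PD1 pathway were taken from lists by role. Of the ligand genes, Cd274 (PD-L1) had 2 peaks and Pdcd1lg2 (PD-L2) 1, none of them called in the 14 comparisons. Of 24 peaks at 8 genes of receptor signalling, 1 was called higher and 1 lower in Sensitized vs. Naive, and 2 higher and 0 lower in S+P C5 vs. Sensitized. That is 8.33% in each, against 8.62% and 6.74% of all peaks. Without Sensitized replicates 3 and 4 the list had 1 higher and 2 lower in the first comparison, and 3 higher and 0 lower in the second, 12.5% in each against 15.2% and 3.25% of all peaks. With all libraries, 1 peak called higher in both lay in an intron of Ptpn11, which encodes SHP2, the phosphatase that PD1 recruits. It had 12 ± 2.26 normalized counts in Naive (SD, n = 3), 37.4 ± 5.96 in N+P C5 (n = 3), and 120 ± 79.4 in Sensitized (n = 4). Among the S+P subsets it had 133 ± 16.6 (C4), 486 ± 73.7 (C5) and 403 ± 112 (C7; n = 4 each). Its log2 fold change was 3.35 ± 0.43 in Sensitized over Naive and 1.87 ± 0.34 in S+P C5 over S+P C4 (DESeq2 adjusted p = 1.46e-12 and 4.3e-06), and 3.96 ± 0.36 in Sensitized over Naive without Sensitized replicates 3 and 4.

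Of 135 peaks at 30 genes that regulate Pdcd1 or exhaustion, 20 were called higher and 2 lower in Sensitized vs. Naive (16.3% against 8.62% of all peaks). In S+P C5 vs. Sensitized 12 were called in each direction (17.8% against 6.74%), and in S+P C5 vs. S+P C4 10 were higher and 12 lower (16.3% against 5.12%). Their median log2 fold change in these comparisons was −0.02, 0.03 and −0.01, against −0.01, −0.01 and −0.01 for all peaks. Rbpj, the factor at the end of the Notch pathway, had 5 of its 5 peaks called higher in Sensitized. In S+P C5 vs. Sensitized an intergenic peak nearest to Eomes and a promoter peak of Tox2, both genes of exhausted cells, had log2 fold changes of 3.93 ± 0.49 and 1.99 ± 0.30 (DESeq2 adjusted p = 2.44e-13 and 3.34e-09), while 6 peaks of Satb1, a repressor of Pdcd1, were lower. Without Sensitized replicates 3 and 4 the Eomes and Tox2 values were 3.69 ± 0.59 and 2.67 ± 0.32, and 1 peak of Satb1 was called lower. The regulator list then had 5 peaks higher and 3 lower in S+P C5 vs. Sensitized (5.93% against 3.25% of all peaks), and 24 higher and 18 lower in Sensitized vs. Naive (31.1% against 15.2%). Of the NFAT and NR4A factors, induced or activated by antigen receptor signals, Nfatc1 (7 peaks) had 1 peak higher in Sensitized vs. Naive, 1 lower in S+P C5 vs. Sensitized, and 2 higher and 1 lower in S+P C5 vs. S+P C4. Without Sensitized replicates 3 and 4 Nfatc1 had 1 higher and 1 lower in the first of these and 0 called in the second. Nfatc2, Nfatc3, Nr4a1, Nr4a2 and Nr4a3 had no called peak in any of the 6 comparisons counted by gene. Of 14 peaks at 4 of 7 other co-inhibitory receptor genes, 4 were higher and 0 lower in Sensitized vs. Naive, all 4 at Havcr2 (TIM3), and 5 were higher and 0 lower in S+P C5 vs. Sensitized (28.6% and 35.7% called). Their median log2 fold change was 0.25 and 0.51, against −0.01 for all peaks in both. Without Sensitized replicates 3 and 4 these counts were 4 higher and 1 lower, and 3 higher and 0 lower (35.7% and 21.4%, against 15.2% and 3.25% of all peaks). Among the 5 was a Tigit intron peak at 2.41 ± 0.19 (DESeq2 adjusted p = 9.51e-34), with 352 ± 31.4 normalized counts in S+P C5 and 65.9 ± 10.6 in Sensitized (SD, n = 4 each), and at 2.45 ± 0.24 without those replicates.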

How the data were processed

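ATAC-seq, in which a transposase cuts accessible DNA, was run on 25 libraries. Per the study's methods and the submitters' processing notes, the authors trimmed reads with cutadapt 3.4, aligned them to GRCm39 with Bowtie2 2.2.9, removed multimapping and duplicate reads (Picard 2.21.8), called peaks per library with Genrich 0.6.1 in its ATAC mode, pooled the libraries of a group into 1 list with ChIP-R, merged the 7 lists with bedtools 2.27.1 and counted reads per merged peak with deepTools. The deposited count table holds raw counts. The deposited lists carry a ChIP-R signal, score and q-value per peak, with no replicate error, and were used only for presence (overlap of at least 1 bp).

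DESeq2 1.42.0 (R 4.3.3) was fitted over all peaks and libraries, modelling only the group, with the study's thresholds (adjusted p under 0.1, absolute log2 fold change over 0.9, not shrunken). The fit was tested on simulated data. Alternatives were edgeR 4.0.16 with TMM, total-count, promoter-peak and loess (limma 3.58.1) scaling, a filter of 10 counts in 3 libraries, no independent filter, adjusted p under 0.05, only the groups compared, a replicate block and each library left out. The replicate block was fitted to the N+P or the S+P libraries alone. Errors are SE for fold changes and SD for levels. Sequences were read from GRCm39 with pysam 0.24.0. For each member the 5 peaks most like it were named, among those with a mean of at least 50 normalized counts, and for each role list up to 2 called peaks per comparison. The members and lists were chosen with earlier results of these data known. The labels do not say whether each library is 1 mouse, so p-values measure the spread between libraries. No 2 libraries of a group agreed within sampling noise (chi-square over degrees of freedom at least 2.81). The lowest count of a member in a library was 9 reads, where counting error weighs most.

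Whether equal replicate numbers pair libraries was read from correlations, over all peaks, of deviations from the group mean. Same-numbered libraries had r from 0.108 to 0.400 for N+P C1 and C5, 0.103 to 0.572 for S+P C4 and C5, 0.522 to 0.771 for S+P C5 and C7, and 0.064 to 0.666 for S+P C4 and C7, where 1 of 4 pairs was under 0.1. For libraries of different numbers, r ran from −0.334 to 0.027, −0.685 to 0.44, −0.483 to 0.137 and −0.636 to 0.252 in the same order. The ranges overlapped where S+P C4 took part and did not overlap for N+P C1 and C5 or S+P C5 and C7. The labels do not say that a number marks 1 mouse, so values with and without the block are given.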

Additional observations from a re-analysis of the deposited data

Results flagged for a closer look

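In 20 groups of 4 libraries (5 Pdcd1 peaks, 4 groups), the highest and the lowest library were compared with the rest of their group by Dixon's test, which chance alone would flag in about 1 of 20 groups. This singled out 2 libraries, both at the 27 kb peak and both the highest of their group. S+P C4 replicate 2 had 259.6 normalized counts, against 211.0, 212.2 and 217.4 in the others (gap over range 0.867), and S+P C7 replicate 1 had 279.8, against 185.6, 194.5 and 197.5 (gap over range 0.874). No comparison of the 27 kb peak was called with or without them.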

How the results depend on the processing

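Among the counts of Pdcd1 peaks called per comparison, 227 recomputed values stayed within 1.5 times the reported count and 15 did not. The reported counts and the changed ones are these. In N+P C5 vs. Naive the count went from 0 to 1 with only those groups fitted. In S+P C4 vs. Sensitized it went from 0 to 1 without Sensitized replicates 3 and 4. In S+P C5 vs. Sensitized it went from 2 to 1 with loess offsets or at an adjusted p under 0.05, to 0 without Sensitized replicates 3 and 4, and from 0 to 3 with single libraries left out. In S+P C7 vs. Sensitized it went from 2 to 1 with loess offsets, to 0 without those replicates, and from 0 to 3 with single libraries left out. For S+P C5 vs. S+P C4 the count with single libraries left out was 2 to 3. Loess offsets lowered the called 22 kb fold changes, and why they and the fit of fewer groups moved values was not tested. The role lists without Sensitized replicates 3 and 4 were counted after seeing the data. No called difference changed its sign under any alternative run. Of the recomputed values for single peaks, 1182 stayed on their side of the thresholds, 8 fold changes gained a call and 24 lost it, and 6 counts of lists moved. With a list q-value under 0.05 none of the 7 lists held a member (0), and the 27 kb peak was covered by at least 50% in 3 lists, against 5 with any overlap. With the replicate number as a block the count was 0 for N+P C5 vs. N+P C1, 3 when S+P C4 was compared with either PD1-positive subset, and 0 between those subsets, as without it. The same libraries fitted without the block, an alternative chosen after seeing the data, gave those counts too. Depth limits the Naive and N+P values of the opening peaks, where a library held as few as 9 reads, and each group has only 3 or 4 libraries.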

Other observations

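Sensitized libraries differed in how open the Pdcd1 locus was, while the proportion of the 22 kb peak to the intron 1 peak varied little among them. Per kb, the 22 kb peak had 1.19, 1.25, 1.23 and 1.26 times the normalized count of the intron 1 peak in Sensitized replicates 1 to 4, although the intron 1 peak itself ran from 106.1 to 447.6 among them. In S+P C5 the same ratio was 1.99, 1.80, 1.87 and 1.06, in S+P C7 1.94, 1.2, 1.59 and 0.965, and in S+P C4 1.31, 1.77, 1.16 and 0.756. The 3 kb to intron 1 ratio was 0.722, 0.806, 0.947 and 0.982 in Sensitized, 1.06, 0.957, 1.06 and 0.971 in S+P C5, and 1.07, 0.894, 0.938 and 0.906 in S+P C7. These ratios were looked at after the values were known and were not tested between groups.

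Replicate 4 gave the lowest 22 kb value in S+P C4, C5 and C7, the only one of the 5 members where 1 replicate number was lowest in all 3 subsets. Replicate 4 was also the lowest S+P C5 and C7 library at the intron 1 peak (log2 level above the Naive mean 2.80 and 2.93, against 3.18 to 3.80 in the others) and at the 3 kb peak (2.91 and 2.95, against 3.42 to 3.79). Across all 13527 peaks replicate 4 was lowest in all 3 subsets at 838 peaks (6.20%), and replicates 1, 2 and 3 at 1287 (9.51%), 398 (2.94%) and 403 (2.98%). The log2 level of the 22 kb peak above its Naive mean was 3.17 in replicate 4 of both S+P C5 and S+P C7, against 4.45, 4.70 and 4.53 in the other S+P C5 libraries and 4.57, 4.34 and 4.55 in the other S+P C7 libraries. Over the 974 other opening peaks the median of replicate 4 was 2.25 in S+P C5, between the lowest (2.2) and the highest (2.55) of the others, and 2.51 in S+P C7, within 2.38 to 2.63.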
